A study of Mus musculus with 2 samples.

Results

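Transient receptor potential (TRP) channels are cation channels in the membrane of sensory neurons that open to heat, cold, irritant chemicals and mechanical or osmotic stress. When they open, sodium and calcium enter the nerve ending and can trigger action potentials and the release of peptides such as calcitonin gene-related peptide. In dorsal root ganglia (DRGs), which hold the cell bodies of the sensory neurons of the body, TRPV1, TRPA1 and TRPM8 are among the best known detectors of painful heat, irritants and cold. Described here are 9 TRP genes, chosen by symbol, Trpv1, Trpv2, Trpv4, Trpa1, Trpm2, Trpm3, Trpm7, Trpm8 and Trpc1, out of 24411 genes in the files. They have 18 RefSeq transcripts of the 35034 listed.

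RNA-seq was performed on 2 libraries, each from the pooled DRG neurons of 10 mice. The alum-injected pool came from C57BL/6 mice (C57BL/6J in the methods) given alum, an aluminium salt adjuvant, and the alum + KLH-immunized pool from C57BL/6 mice given alum with keyhole limpet hemocyanin (KLH), a mollusc protein used as a foreign antigen. The mice were male and 6 to 8 weeks old, were injected intraperitoneally on day 0 and day 14, and gave thoracic and lumbar DRGs on day 28. The label of the control library calls it both naïve and given only alum, and it was treated as alum-injected. Neurons were enriched by digestion and a density step and B lymphocytes were removed with beads, so the pools are enriched preparations and not sorted neurons. With 1 library per group there are no replicates, no spread between mice is known, and no test of the immunization was made.

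Levels are in TPM, transcripts out of every 1000000, in which reads are divided by transcript length, so that genes can be compared within a library. Below, "after alum" stands for the alum-injected pool and "after alum + KLH" for the alum + KLH-immunized pool. A gene above 3 TPM was called detected, the study's limit. The difference between the pools is a log2 ratio, TPM + 1 after alum + KLH divided by TPM + 1 after alum. Adding 1 TPM makes the changes of low genes look smaller than they are. To show how far genes of like level differ between these same libraries, the SD of this ratio among the 500 genes closest in level is given with the value of each TRP gene described and of each list gene whose ratio is printed. Genes whose log2 ratio was 0.32 or more in size were counted as apart. The methods state a minimum read depth that both libraries reached, but the reads assigned to each transcript are not in the files, so no counting interval or detection floor was computed. All 11 pan-neuronal markers were above 3 TPM in both pools, and 0 of 8 B lymphocyte markers were. Glial RNA was present, with 8 of 8 satellite glia markers and 6 of 11 Schwann cell markers above 3 TPM in both pools, whereas the highest of 12 macrophage markers reached 3.93 TPM. In pooled RNA, fewer cells of a type and less RNA per cell cannot be told apart.

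Of all 24411 genes, 47.7% were above 3 TPM in at least 1 pool, the share to set beside the counts here and for the lists below. Of the 9 TRP genes, 7 were above 3 TPM in both pools, and Trpm2 and Trpv4 were below it in both. Trpa1 was the highest, followed in both pools by Trpv1, Trpm7, Trpc1 and Trpm3. Between adjacent genes of this order the values of the 2 pools did not overlap. Trpv2 and Trpm8 came next, and only this pair changed places, with Trpv2 above Trpm8 in the alum-injected pool and below it in the alum + KLH-immunized pool. Trpm2 and then Trpv4 were the lowest in both. The 9 genes summed to 388.4 TPM after alum and 369.8 TPM after alum + KLH, and Trpa1 alone supplied 39.6% and 35.4% of these sums.

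**Figure D1:**
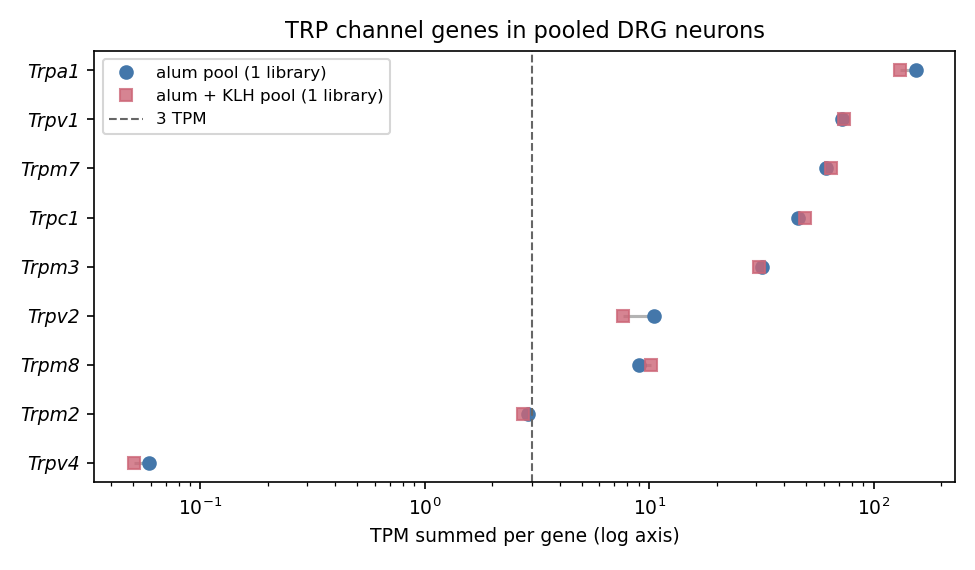
TPM summed per gene for the 9 TRP genes (log axis), with a circle for the alum-injected pool, a square for the alum + KLH-immunized pool and a dashed line at 3 TPM; each point is 1 library. Trpa1 stands highest at 153.9 and 130.9 TPM, and Trpv2 and Trpm8 are the neighbours whose values overlap.

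The capsaicin and heat receptor gene Trpv1 (NM_001001445, chromosome 11, 73234292 to 73261239 of GRCm38, plus strand, 16 exons) was at 72.6 TPM after alum and 73.6 TPM after alum + KLH. Both values lay in the upper part of the transcriptome, with 11.5% and 11.3% of all genes higher. The log2 ratio was 0.02 against an SD of 0.15 among genes of like level, and it turned to -0.06 when TPM was expressed relative to Hprt. No 31-mer of the Trpv1 transcript occurred in an annotated transcript of another gene.

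Trpa1, which encodes the receptor for mustard oil and other reactive irritants (NM_177781, chromosome 1, 14872648 to 14918862, minus strand, 27 exons), was at 153.9 TPM after alum and 130.9 TPM after alum + KLH. The alum-injected value was 1.18-fold that of the alum + KLH-immunized pool. The log2 ratio of -0.23 exceeded the SD of 0.12 of the genes closest in level, 6.2% of which were at least as far apart. The ratio of Trpa1 to Trpv1 within a library was 2.12 after alum and 1.78 after alum + KLH. Markers of non-peptidergic (NP) nociceptors, a neuron class that carries Trpa1, were lower as well. This held for all 7 of them in the alum + KLH-immunized pool, and their summed level was 875.7 TPM against 777.5 TPM. Their median log2 ratio was -0.20, against -0.02 over all detected genes. Markers of tyrosine hydroxylase neurons were also all lower (5 of 5). Of 6 peptidergic markers, 4 were lower and 2 higher. The part of any neuron class in the Trpa1 difference was not tested.

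Trpv2 was the member with the widest difference between the pools. The gene (NM_011706, chromosome 11, 62574538 to 62600515, plus strand, 16 exons) encodes a vanilloid subfamily channel found in medium and large sensory neurons and in leukocytes. Its level was 10.5 TPM after alum and 7.61 TPM after alum + KLH. The alum-injected value was thus 1.38-fold that of the other pool. The log2 ratio was -0.42, the SD among genes of like level was 0.25, and 5.0% of those 500 genes were at least as far apart. Over the alternatives the ratio ranged from -0.49 to -0.40. Of 12 macrophage markers, 2 were above 3 TPM in both pools, the defining marker Csf1r was at 0.113 TPM and 0.167 TPM, and the list summed to 15.6 TPM and 15.1 TPM. Of 7 markers of the large neurofilament (NF) neurons, 4 were higher and 3 lower in the alum + KLH-immunized pool, and their sums were 1857 TPM and 2020 TPM. Spp1 carried most of that difference in sum, at 196.1 TPM and 352.4 TPM, and the median log2 ratio of the list was 0.01. The part of either cell class in the Trpv2 difference was not tested. Part of the Trpv2 transcript is not particular to it, since 146 of its 31-mers (5.07%) occurred in annotated transcripts of other genes.

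Trpm8, the receptor for cold and menthol (NM_134252, chromosome 1, 88306759 to 88389293, plus strand, 26 exons), was at 9.01 TPM after alum and 10.1 TPM after alum + KLH. The log2 ratio of 0.15 was below the SD of 0.35 at this level. Within a library, Trpv1 was 8.05 times Trpm8 after alum and 7.25 times after alum + KLH. The annotation places exons of a gene on the opposite strand, 4930453O03Rik, over 388 bases of the Trpm8 exons, and 8.11% of the 31-mers of Trpm8 are shared with it. That gene has no row in the files, and the strand setting of the quantification was not given in the sources used here.

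**Figure D2:**
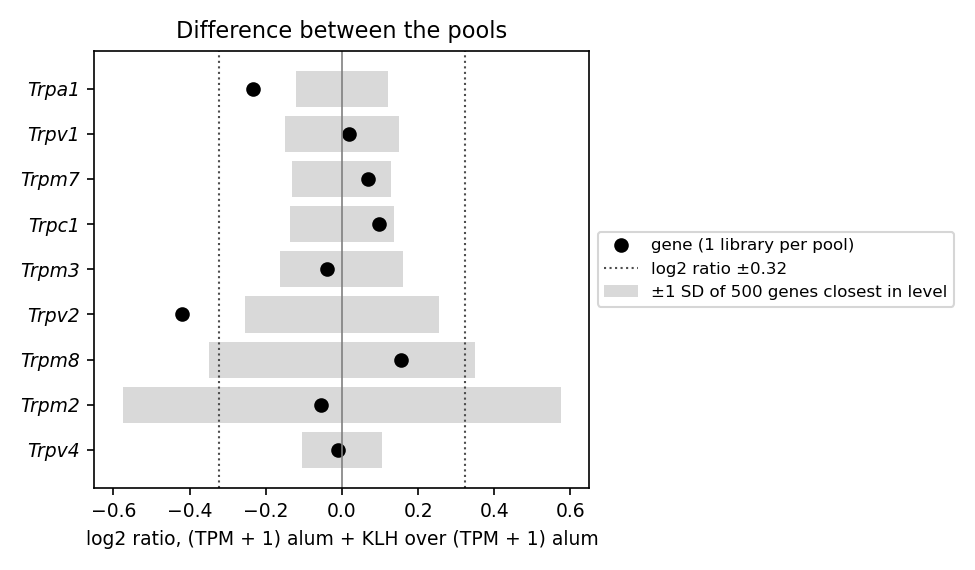
Log2 ratio of alum + KLH-immunized over alum-injected TPM for each gene (points), with grey bars for ±1 SD over the 500 genes closest in level and dotted lines at a log2 ratio of 0.32 in either direction. Trpa1 at -0.23 and Trpv2 at -0.42 lie outside their bars; the other 7 genes lie inside.

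Trpm3 encodes a channel opened by heat and by the steroid pregnenolone sulfate. The gene summed to 31.7 TPM after alum and 30.9 TPM after alum + KLH, with a log2 ratio of -0.04 against an SD of 0.16. This total was divided among 9 transcripts from 3 starts on chromosome 19, plus strand. The 5 transcripts of the first start (22139046 to 22139117 of GRCm38) summed to 9.84 TPM after alum and 7.21 TPM after alum + KLH. The single transcript of the second start, NM_177341 (22448232 to 22989310, 27 exons), was at 19.1 TPM and 20.3 TPM, which is 60.2% and 65.6% of the gene. The 3 short transcripts of the third start (22692786 to 22692814) summed to 2.78 TPM and 3.42 TPM.

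The windows around the first and second starts are shown because most Trpm3 RNA was assigned to the second. Each window holds 250 bases before and 50 bases after the RefSeq start of assembly GRCm38.p6, plus strand, 5′ to 3′, and capitals mark CG pairs. The first lies at chr19:22138796-22139095 and the second at chr19:22447958-22448257.
Trpm3 first start: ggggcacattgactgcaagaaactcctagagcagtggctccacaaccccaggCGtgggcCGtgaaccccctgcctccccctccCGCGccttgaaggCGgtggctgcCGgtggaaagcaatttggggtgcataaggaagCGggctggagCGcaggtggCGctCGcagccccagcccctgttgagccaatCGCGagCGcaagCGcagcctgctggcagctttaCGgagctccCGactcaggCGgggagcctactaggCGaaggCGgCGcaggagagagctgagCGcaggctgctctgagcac
Trpm3 second start: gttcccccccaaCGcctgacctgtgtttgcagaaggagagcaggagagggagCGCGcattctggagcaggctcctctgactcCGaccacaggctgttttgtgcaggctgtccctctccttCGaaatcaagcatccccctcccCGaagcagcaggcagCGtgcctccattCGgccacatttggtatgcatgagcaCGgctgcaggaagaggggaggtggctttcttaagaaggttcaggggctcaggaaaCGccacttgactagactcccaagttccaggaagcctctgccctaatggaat
The window of the first start holds 21 CG pairs and that of the second holds 10, against a median of 7 over 32851 windows of the same length. The motif CCAAT, read on either strand, is present in the first and not in the second, and 37.4% of all windows hold it. TATAAA and GGGCGG, also read on both strands, are in neither window and are held by 13.6% and 35.7% of all windows.

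The 6 longer Trpm3 transcripts, those of the first and second starts, differ in their coding sequence. NM_177341 has 1337 codons, against 1699 to 1721 in the 5 transcripts of the first start, and larger differences are not shown here. Among the differences are 3 short coding segments, each a multiple of 3 bases. These segments are shown because they set some splice forms of the channel apart. Each is in capitals with 15 flanking bases of the spliced transcript on either side, read from the GENCODE transcript paired with the RefSeq row.
Exon of 36 bases, chr19:22897484-22897519: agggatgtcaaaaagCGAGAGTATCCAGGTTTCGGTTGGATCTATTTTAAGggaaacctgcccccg
Exon of 30 bases, chr19:22900134-22900163: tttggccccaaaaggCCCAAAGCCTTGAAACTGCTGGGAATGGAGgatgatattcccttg
Exon extension of 36 bases, chr19:22926071-22926106: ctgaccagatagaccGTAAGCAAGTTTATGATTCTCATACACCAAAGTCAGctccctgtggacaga
Transcripts with the 36-base exon made up 73.4% of the TPM of these 6 transcripts after alum and 84.0% after alum + KLH. Those with the 30-base exon made up 92.4% and 84.9%. Among these 6, the 36-base extension is in 1 transcript, NM_001035239. That transcript was at 1.63 TPM after alum and 0.11 TPM after alum + KLH, or 5.64% and 0.41% of the 6. In both pools most RNA of the 6 transcripts was assigned to those without the extension. The short transcripts of the third start were not searched for these segments.

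Among single Trpm3 transcripts, NM_001035242 was at 4.43 TPM after alum and 1.77 TPM after alum + KLH, with a log2 ratio of -0.97 and an SD of 0.63 among transcripts of like level. The log2 ratio of NM_001035239 was -1.24 with an SD of 0.59, and NM_001035241 went the other way, from 0.58 to 1.65 TPM, with a ratio of 0.75 and an SD of 0.73. The gene total hardly moved while these shares did. The transcripts differ in how much sequence is their own. NM_001035242 has 6642 31-mers (54.2%) found in no other listed transcript of the 9 genes, and the 3 short transcripts have between 12.0% and 42.7%. NM_001035240, NM_001035241 and NM_001035243 have none, and NM_001035239 has 30. NM_177341 has 254, or 5.61% of its 31-mers. Exons of C330002G04Rik on the opposite strand overlap 351 bases of all 6 longer transcripts. Exons of Gm27151, also on the opposite strand, overlap 228 bases of NM_177341. Of the 31-mers of NM_177341, 490 (10.8%) occurred in annotated transcripts of these other genes. Neither gene has a row in the files, and the strand setting is not known, so the share of NM_177341 carries this limit.

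**Figure D3:**
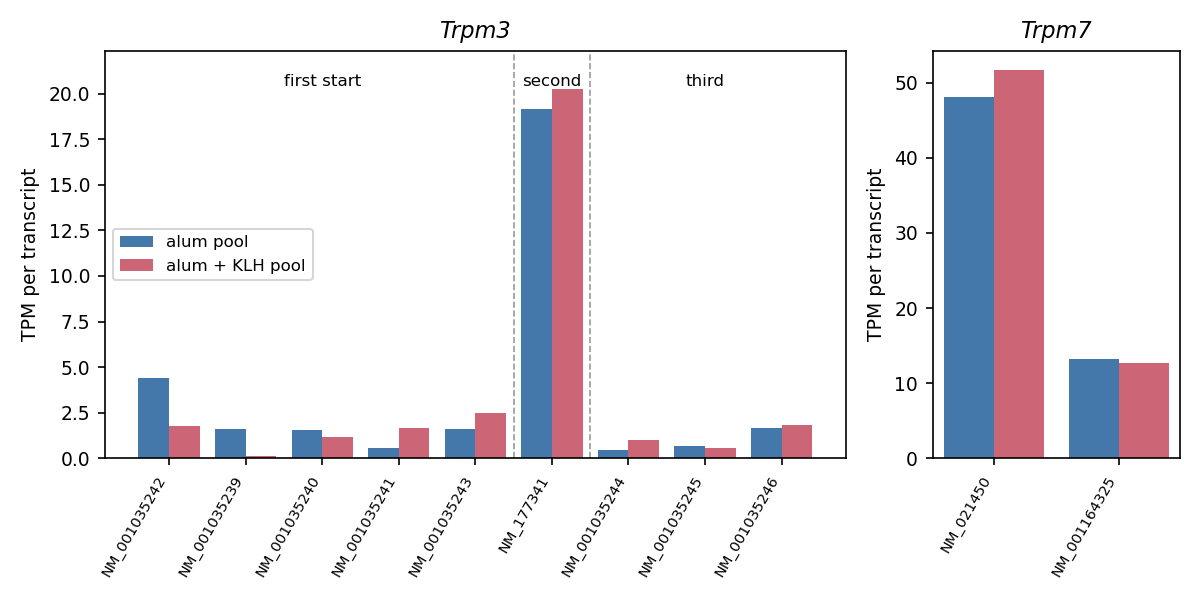
TPM of each RefSeq transcript of Trpm3 (left, ordered by the 3 starts) and Trpm7 (right), with 1 bar per library; the pools have no replicates. NM_177341 holds 60.2% and 65.6% of Trpm3, and NM_021450 holds 78.5% and 80.2% of Trpm7.

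Trpm7 encodes a channel fused to a protein kinase that carries magnesium and calcium and is present in most cell types. Its total was 61.4 TPM after alum and 64.4 TPM after alum + KLH. The log2 ratio was 0.07 with an SD of 0.13, and it turned to -0.02 relative to Hprt. Both transcripts lie on chromosome 2, minus strand, and have 39 exons. NM_021450 (126791565 to 126876230) was at 48.1 TPM and 51.7 TPM, and NM_001164325 (126791571 to 126876117) at 13.2 TPM and 12.7 TPM. Their coding sequences differ by a single codon at chr2:126805085-126805087, shown in capitals within the spliced transcript.
NM_021450: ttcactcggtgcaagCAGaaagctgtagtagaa
NM_001164325: ttcactcggtgcaagaaagctgtagtagaa
The form with this codon made up 78.5% of Trpm7 after alum and 80.2% after alum + KLH. This division rests on few 31-mers, 150 (2.12%) of NM_021450 and 28 (0.40%) of NM_001164325 being their own.

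Trpc1 encodes a canonical TRP subunit that joins other TRPC subunits and has been linked to store-operated calcium entry. On its single listed transcript (NM_011643, chromosome 9, 95705082 to 95750358, minus strand, 13 exons) it was at 46.3 TPM after alum and 49.6 TPM after alum + KLH. The log2 ratio of 0.10 was below the SD of 0.14.

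Trpm2 encodes a channel opened by ADP-ribose and oxidative stress. On NM_138301 (chromosome 10, 77907722 to 77969854, minus strand, 34 exons) it was at 2.90 TPM after alum and 2.75 TPM after alum + KLH, just under the limit of 3 TPM in both. Trpv4 encodes a channel that responds to osmotic swelling. On NM_022017 (chromosome 5, 114622152 to 114658421, minus strand, 16 exons) it was at 0.059 TPM and 0.050 TPM, and 73.8% and 74.3% of all genes were higher. The log2 ratio was -0.06 (SD 0.57) for Trpm2 and -0.01 (SD 0.11) for Trpv4. Neither gene's level shows that it is unexpressed, since the number of reads behind that level is not in the files.

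Counted over the 7 detected members, 0 were higher after alum + KLH by a log2 ratio of 0.32 or more, and 1, Trpv2, was lower by that much. Of all 11648 genes above 3 TPM in at least 1 pool, 2.29% were this much higher and 5.39% this much lower. Relative to Hprt the split among all genes went from 267 higher and 628 lower to 185 higher and 1102 lower, while the member counts stayed at 0 and 1. No member was 2-fold apart in either direction, against 0.695% of all genes higher and 0.944% lower. The ratio was above 0 for 4 detected members and below 0 for 3, and relative to Hprt for 2 and 5. The median log2 ratio was 0.02 over the 7 members and -0.02 over all detected genes. Of the 9 member transcripts above 3 TPM in at least 1 pool, 2 were lower by 0.32 or more, the Trpv2 transcript and NM_001035242 of Trpm3, and 0 were higher. Over all transcripts these shares were 10.9% lower and 6.77% higher. On the same scale 0 of these 9 transcripts were 2-fold apart, against 1.86% of all transcripts higher and 2.79% lower. NM_001035239 of Trpm3, under 3 TPM in both pools, was past 2-fold and is not in this count. NM_001035242 is among the 9 transcripts counted. Without the added 1 TPM, its alum-injected value was 2.50-fold that of the alum + KLH-immunized pool.

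The remaining TRP family was read from a list of 19 genes, of which 6 were above 3 TPM in both pools. Pkd2l2, a polycystin family gene, was at 39.2 TPM after alum and 43.1 TPM after alum + KLH. Trpc6, which encodes a canonical channel opened by diacylglycerol, was at 40.4 TPM and 36.5 TPM. The lysosomal channel gene Mcoln1, Pkd2 and Trpc4 were also above the limit, between 4.63 and 16.5 TPM. Trpm5 and Trpv5 were listed at 0 in both pools, and they and Mcoln1 were named after their values were seen. None of the 6 detected genes was apart by 0.32 on the log2 scale, and the largest differences were 0.15 for Pkd2 (SD 0.23) and -0.23 for Trpc4 (SD 0.23) on the log2 scale.

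**Figure D4:**
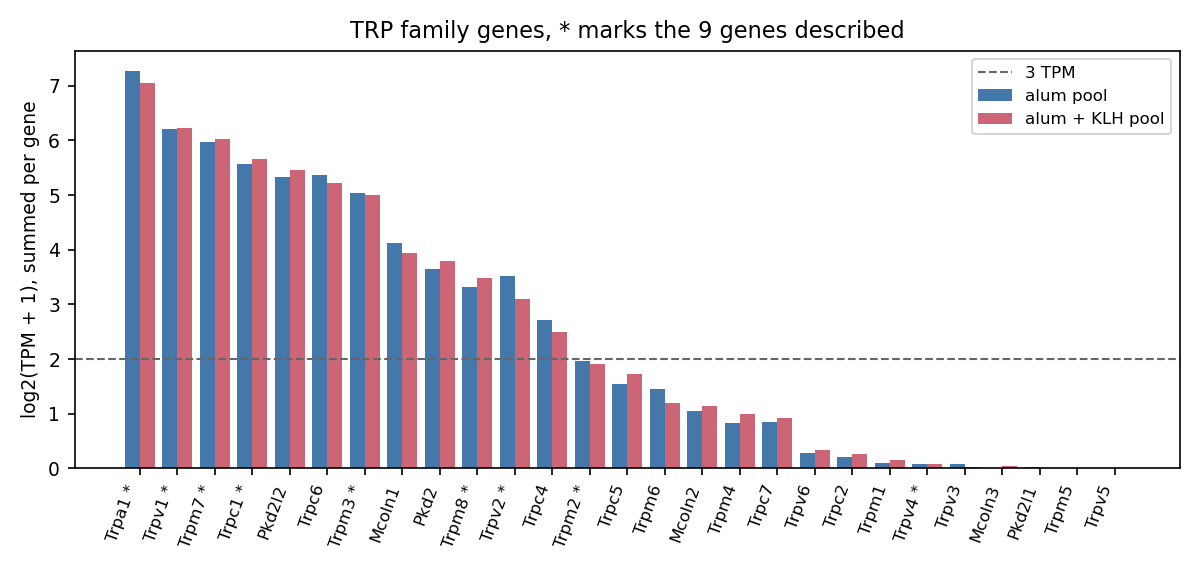
Log2(TPM + 1) summed per gene for 27 genes of the TRP family, with 1 bar per library, asterisks for the 9 genes described and a dashed line at 3 TPM. Of these genes, 15 are below the line in both pools, Trpm2 and Trpv4 among them.

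Genes that act with or on TRP channels were read from a list of 34 genes, of which 32 were above 3 TPM in both pools. The calmodulin gene Calm2, whose product mediates the calcium-dependent desensitization of several TRP channels, was the highest at 7046 TPM after alum and 7219 TPM after alum + KLH. Gnb1, a G protein beta subunit, was at 954.0 TPM and 1054 TPM. Pirt, a membrane protein that binds TRPV1 and TRPM8, was at 988.5 TPM and 864.9 TPM. Of the 33 genes above 3 TPM in at least 1 pool, 3 were lower by a log2 ratio of 0.32 or more and 0 were higher, against 5.39% and 2.29% of all genes. They were Gna11, a Gq family alpha subunit (log2 ratio -0.42, SD 0.36), Pip5k1c, an enzyme that makes the membrane lipid PIP2 (-0.36, SD 0.35), and the store-operated channel gene Orai1 (-0.33, SD 0.57). The largest positive value was 0.29 (SD 0.39) for the chloride channel gene Ano1, at 3.77 TPM and 4.85 TPM. The median over the list was -0.03. Pirt, Pip5k1c and Orai1 were named after their values were seen.

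Receptors that act on TRP channels through second messengers were read from a list of 15 genes, and 11 of them exceeded 3 TPM in each pool. The highest were Mrgprd, the beta-alanine receptor of NP neurons, at 161.0 TPM after alum and 132.2 TPM after alum + KLH, and the nucleotide receptor gene P2ry1 at 99.2 TPM and 99.3 TPM. Ptgir, the prostacyclin receptor gene, was at 46.1 TPM and 45.5 TPM. The bradykinin receptor genes Bdkrb1 and Bdkrb2 and the protease receptor gene F2rl1, named after their values were seen, were below 1 TPM in both pools. None of the 11 genes was apart by 0.32. The median log2 ratio was -0.20, with values from -0.28 for Mrgprd (SD 0.12) to 0.24 for the serotonin receptor gene Htr7 (SD 0.18).

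**Figure D5:**
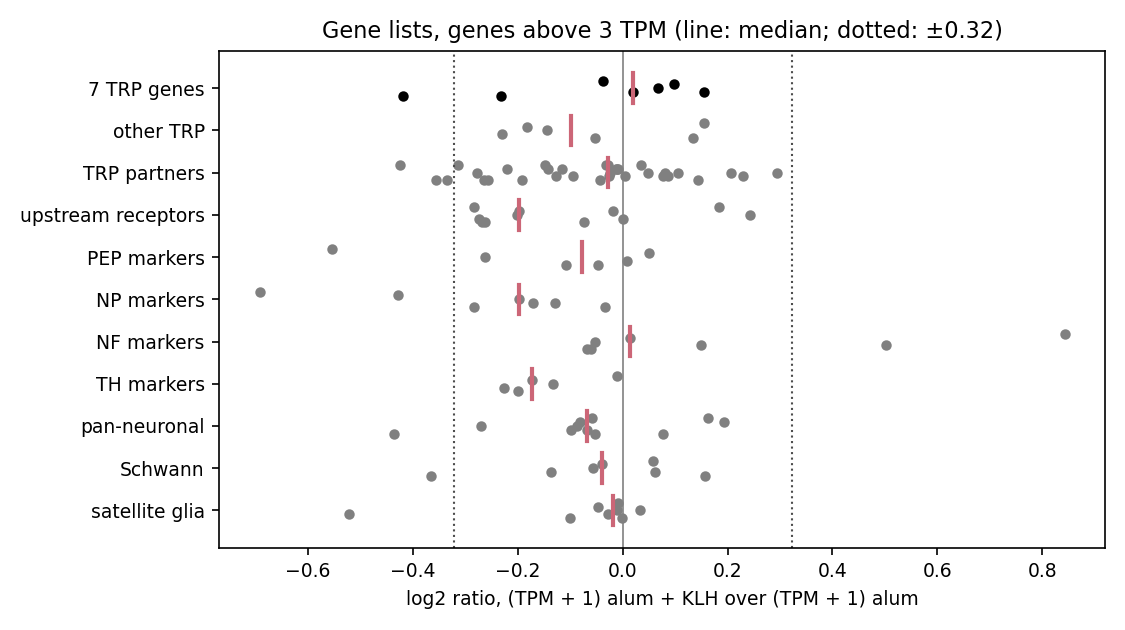
Log2 ratio of each gene above 3 TPM in at least 1 pool, by gene list (points), with red lines at the list medians and dotted lines at a log2 ratio of 0.32 in either direction; the lists share the same 2 libraries. The 7 detected TRP genes have a median of 0.02, the NP markers one of -0.20 and the NF markers one of 0.01.

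Among the markers of the neuron classes in which these channels are known, peptidergic (PEP) markers had a median log2 ratio of -0.08 (2 higher and 4 lower), and markers of the tyrosine hydroxylase (TH) neurons one of -0.17 (0 higher and 5 lower). For the NP markers the median was -0.20. Satellite glia markers had a median of -0.02 and Schwann cell markers one of -0.04. The median of the detected TRP genes was thus above that of the PEP, NP and TH markers in these libraries, a difference that has no replicate check. It did not hold for each gene, since Trpa1 (-0.23, SD 0.12) and Trpv2 (-0.42, SD 0.25) lay below all these medians. The other detected members lay above the PEP, NP and TH medians, and Trpm3 (-0.04, SD 0.16) lay below the satellite glia median.

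The genes most like Trpv1, Trpa1 and Trpm8 in level were found by the distance in log2(TPM + 1) over the 2 libraries among the 11648 detected genes. For Trpv1 they were 4933409K07Rik, Fez2 and Cdr2, within a distance of 0.012. For Trpa1 they were Eif4h, Mrps36 and Wbp2, within 0.031, and for Trpm8 they were Cacng5, Agmo and Fam205c, within 0.023. With 2 libraries this measure reads level and a single difference and nothing more.

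Promoter windows of RefSeq (GRCm38.p6, 300 bases) were at hand for 8 of the 9 genes, in 11 windows. The number of CG pairs was 35 for Trpm7, 30 for Trpv4, 22 for Trpc1 and 15 for Trpm2. It was 4 for Trpv1, between 2 and 7 for the 3 windows of Trpv2, and 1 for Trpm8, where 5.43% of all windows held fewer. TATAAA on either strand was found in the windows of Trpm8 and Trpm2 and in 1 window of Trpv2.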

How the data were processed

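Stranded mRNA libraries were prepared from pooled DRG neurons (10 mice per group). The authors trimmed paired-end reads with cutadapt and quantified them with kallisto on the annotated mouse transcriptome (mm10, the same assembly as GRCm38), and deposited TPM per RefSeq transcript, scaled to 1000000 per library. Versions and the strand setting are not given in the sources used here. The files hold no read counts, so counting error is unknown, and the division of reads among transcripts could not be repeated.

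TPM was summed per gene, and log2 ratios used a pseudocount of 1 TPM. With 1 library per group no test was made. Ratios are set beside the SD over the 500 genes or transcripts closest in mean log2(TPM + 1). Named are all 9 members with their transcripts and the 3 genes nearest in level to Trpv1, Trpa1 and Trpm8. From the TRP family, partner and receptor lists, the 3 highest genes and the largest rise and fall were drawn. The marker lists are given by counts, sums or medians, with only Csf1r and Spp1 named. Some list genes are not reported here. The members and lists were chosen with earlier results of these data known. Positions came from GENCODE M21 through its RefSeq table, and 31-mers from its transcripts, compared in both orientations. Python 3.11.15, numpy 2.4.6, pandas 2.3.3 and matplotlib 3.10.9 were used, and the calculations were tested on simulated data. Alternatives were pseudocounts of 0.1 and 0.5 TPM, each gene read from its highest transcript, division by the median gene's ratio, by Hprt or by the summed pan-neuronal markers, no filter, a filter at 10 TPM, and thresholds of 1 and 10 TPM.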

Additional observations from a re-analysis of the deposited data

How the results depend on the processing

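No paired analysis was possible because each group holds 1 library, and no library could be left out. All counts of detected members and of members past a log2 ratio of 0.32 or past 2-fold stayed within 1.5 times their value under every alternative run for them. The median log2 ratio of the members, 0.02 as reported, was 0.079 with the highest transcript of each gene, 0.039 after division by the median gene's ratio, 0.036 relative to the summed pan-neuronal markers, -0.065 relative to Hprt and -0.011 with no filter, which adds Trpm2 and Trpv4. The median of all genes was -0.10 relative to Hprt, below that of the members, and 0 with no filter, above it. The log2 ratios of Trpa1, Trpv2, Trpm8, Trpc1, Trpm2 and Trpv4 kept their sign under all 6 alternatives run for single genes. Those of Trpv1 (-0.06 to 0.04), Trpm7 (-0.02 to 0.10) and Trpm3 (-0.12 to 0.08) did not. None of the 9 moved by more than its SD among genes of like level. The absent read counts limit the low genes most, Trpm2, Trpv4 and the minor Trpm3 transcripts.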
